A study of Mus musculus with 24 samples.

Results

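Histone marks were examined at the 6 mouse genes for the main proteins of myeloid granules: Mpo, Elane, Prtn3, Ctsg, Lyz1 and Lyz2. The regions were all deposited H3K27ac and H3K4me1 peaks that lay in the body of these genes or within 20 kb of either annotated end, and 48 of the 272993 peaks in 4 lists qualified. The genes are 6 of 21887 protein-coding genes of the RefSeq annotation of GRCm38.p6, the assembly that mm10 names. Because Prtn3 lies next to Elane and Lyz2 next to Lyz1, the 6 windows join into 4 loci with 197197 bp in all, and neighbouring members share most of their peaks.

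The cells were leukemic erythroid cells of bone marrow from TgSpi1 mice (the cells labelled #763), which overexpress the transcription factor SPI1 (PU.1), carry a doxycycline-inducible hairpin RNA against Spi1 and were grown with erythropoietin. The Dox_Treated cultures received doxycycline for 48 h to induce the hairpin, and the Dox_Untreated cultures did not. The transgene, the hairpin construct and the culture with erythropoietin were common to both groups, and all samples came from this single line. No group of the series received doxycycline without the hairpin, so effects of lower SPI1, of the drug and of expressing a hairpin cannot be told apart. Each H3K27ac list stands for replicates 1 and 2 together, and each H3K4me1 list holds replicate 1. With 1 list per mark and condition there is neither a replicate error nor a test for the values below, and each difference is one between deposited lists whose read depth is unknown.

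Myeloid granules are storage compartments that neutrophils and their promyelocyte precursors fill with proteins that kill or digest microbes. Most granule protein genes are switched on for a short stage of myeloid maturation, under PU.1 together with C/EBP, RUNX1 and MYB factors, and are silent in red cell precursors. H3K4me1 marks enhancers whether active or not, and H3K27ac marks active enhancers and promoters, so a region with H3K4me1 alone is often called primed.

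All 6 granule genes carried H3K4me1 in their windows in both conditions and almost no H3K27ac. H3K4me1 peaks numbered 18 over 25016 bp in the Dox_Treated list and 28 over 33064 bp in the Dox_Untreated list, a ratio of covered length of 0.757. The covered length was shorter with doxycycline at 6 of 6 members, which form 4 loci. Of the 17533 genes with an H3K4me1 peak in their window, 37.9% were shorter and 61.8% longer, or 50.5% shorter and 49.5% longer once treated lengths were scaled to equal totals. No member was without H3K4me1, as 19.9% of all genes were. H3K27ac peaks numbered 0 in the Dox_Treated list and 2 in the Dox_Untreated list, and both of these lay at the outer parts of the joined Elane and Prtn3 window. The largest relative difference in H3K4me1 was at Mpo, where 5 of 8 untreated peaks had no counterpart with doxycycline, while the wide peak in the body of Prtn3 was present in both lists.

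**Figure D1:**
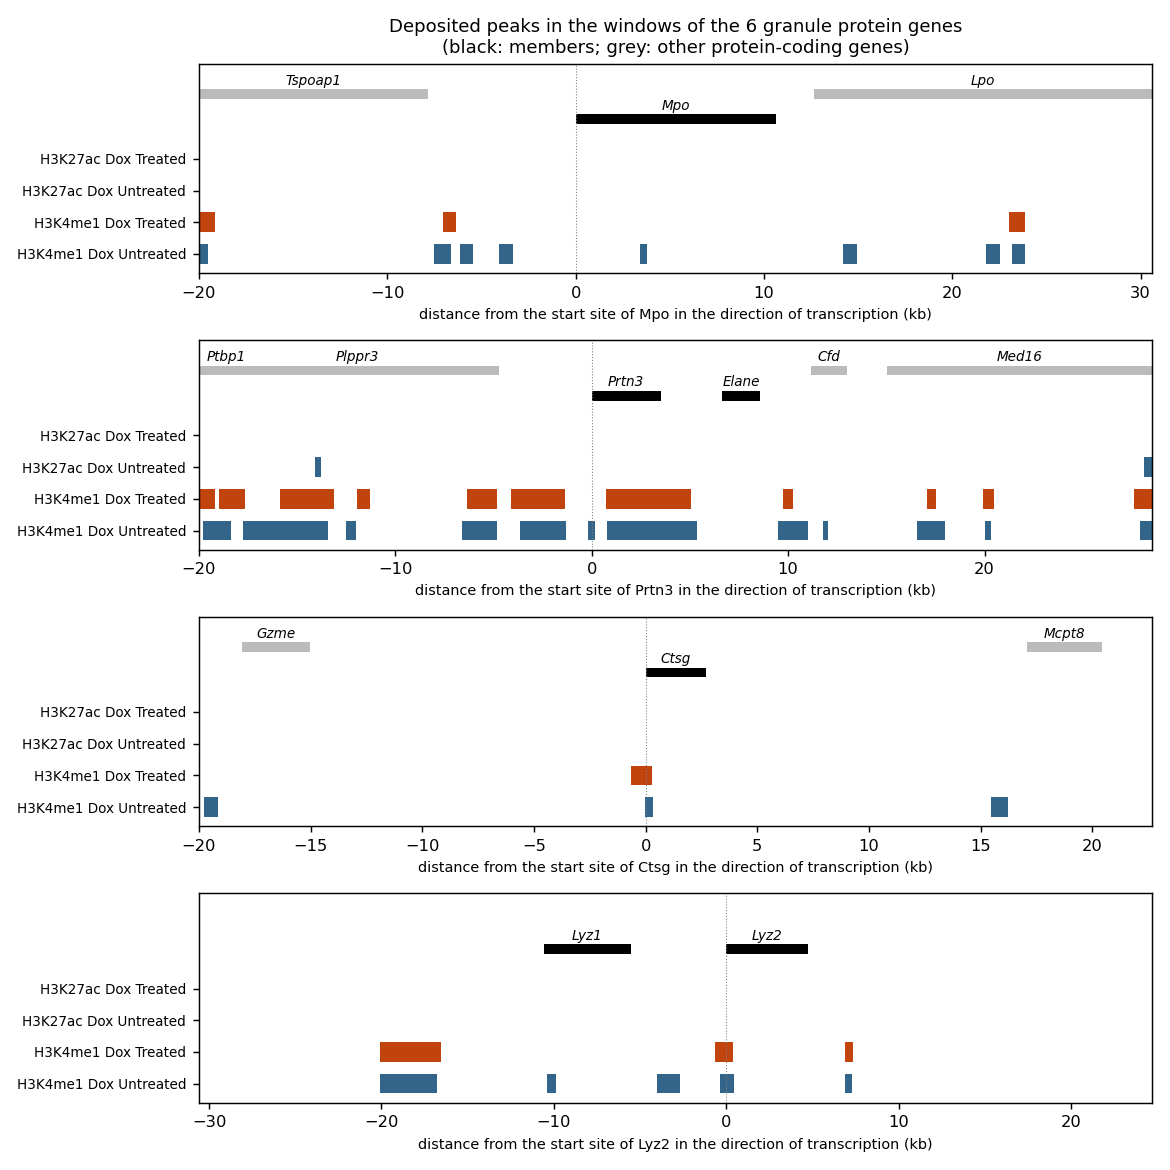
Peaks of the 4 lists drawn as bars along the 4 loci, cut at the window edges, with distance in kb from the start site of Mpo, Prtn3, Ctsg or Lyz2 on the horizontal axis and the Dox Treated row above the Dox Untreated row for each mark. The 2 H3K27ac peaks are both untreated and lie far from the members, and untreated H3K4me1 peaks around Mpo are more numerous than treated ones (8 against 3).

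The stretches of 250 bases before the start sites are printed to set them beside the peaks. H3K4me1 covered 0 bp treated and 168 bp untreated of the Prtn3 stretch, and 250 bp treated and 27 bp untreated of the Ctsg stretch. The other 4 stretches did not differ, with Lyz2 covered in full and Mpo, Elane and Lyz1 bare in both lists. The sequences are those of RefSeq on GRCm38.p6, written 5′ to 3′ on the strand of the gene. They are chr10:79879417-79879666 on the plus strand, chr14:56102575-56102824 on the minus strand, chr11:87793534-87793783 on the plus strand, chr10:79886062-79886311 on the plus strand, chr10:117292869-117293118 on the minus strand and chr10:117282273-117282522 on the minus strand. Capitals mark the PU.1 core GAGGAA in Prtn3, Ctsg, Mpo and Elane, and in Lyz1 and Lyz2, which lack that core, the shorter ETS core GGAA or its reverse complement TTCC.
Prtn3: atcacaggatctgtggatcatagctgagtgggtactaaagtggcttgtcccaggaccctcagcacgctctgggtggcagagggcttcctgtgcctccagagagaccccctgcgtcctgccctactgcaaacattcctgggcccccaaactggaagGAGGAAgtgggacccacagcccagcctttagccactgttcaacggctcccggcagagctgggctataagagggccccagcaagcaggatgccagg
Ctsg: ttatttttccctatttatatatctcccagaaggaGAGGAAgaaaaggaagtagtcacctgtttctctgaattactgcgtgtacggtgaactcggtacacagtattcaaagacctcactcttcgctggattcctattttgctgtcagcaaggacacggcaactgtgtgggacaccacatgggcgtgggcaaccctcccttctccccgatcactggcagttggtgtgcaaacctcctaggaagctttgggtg
Mpo: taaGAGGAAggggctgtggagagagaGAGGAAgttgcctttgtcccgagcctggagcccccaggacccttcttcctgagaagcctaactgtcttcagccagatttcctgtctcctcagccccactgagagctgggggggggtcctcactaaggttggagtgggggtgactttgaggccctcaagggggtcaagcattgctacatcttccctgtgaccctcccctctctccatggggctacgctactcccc
Elane: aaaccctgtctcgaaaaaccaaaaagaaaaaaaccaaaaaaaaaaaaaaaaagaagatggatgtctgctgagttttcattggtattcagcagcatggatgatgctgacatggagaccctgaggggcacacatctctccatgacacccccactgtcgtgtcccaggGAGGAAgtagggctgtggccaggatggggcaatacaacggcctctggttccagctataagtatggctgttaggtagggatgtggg
Lyz1: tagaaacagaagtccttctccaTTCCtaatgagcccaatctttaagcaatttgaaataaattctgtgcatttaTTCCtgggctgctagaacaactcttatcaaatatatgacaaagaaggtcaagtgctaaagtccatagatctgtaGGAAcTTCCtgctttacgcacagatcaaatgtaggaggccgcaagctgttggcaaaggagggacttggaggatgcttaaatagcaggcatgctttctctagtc
Lyz2: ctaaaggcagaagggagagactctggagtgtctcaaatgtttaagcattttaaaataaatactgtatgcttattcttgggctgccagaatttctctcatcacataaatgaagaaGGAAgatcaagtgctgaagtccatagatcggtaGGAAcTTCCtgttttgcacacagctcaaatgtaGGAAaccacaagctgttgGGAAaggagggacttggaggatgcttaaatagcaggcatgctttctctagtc

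GAGGAA or its reverse complement TTCCTC was found in 4 of the 6 stretches, and in 23.3% of the 32851 stretches of the same length before annotated start sites. Counted back from the start site in bases, its first base lay at -95 in Prtn3, -216 in Ctsg, -85 in Elane, and -247 and -224 in Mpo, on the sense strand in every case. The second Mpo match is part of the longer form AGAGGAAGT, which 0.798% of all stretches hold on either strand. The Prtn3 match lay inside an H3K4me1 peak in the Dox_Untreated list and in none in the Dox_Treated list. The Ctsg match showed the opposite, inside a treated peak and in no untreated one. The matches of Mpo and Elane lay in no peak of any list. A match is a run of letters and does not show that SPI1 was bound there.

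Of the other motifs searched on both strands, the C/EBP form TTNNNCAA was found in Lyz1 and Lyz2 alone (33.3% of all stretches), the RUNX form TGTGGT in Ctsg and Lyz2 (14.0%), and the MYB form AACNG in 6 of 6 (74.2%). The GATA form AGATAA was found in 0 of 6, where 9.99% of all stretches hold it. Other GATA forms such as TGATAA were not searched, and the printed Lyz1 stretch holds TTATCA, the reverse complement of TGATAA. The ETS core GGAA, which lies within GAGGAA and was added after the stretches had been read, was found in 6 of 6 and in 93.4% of all stretches. Lyz1 and Lyz2 were alike in sequence, with 205 identical bases over 260 aligned columns (78.8%) and the last 50 bases before the start site identical. Both hold the run taGGAAcTTCCtg at the same place, with GGAA at -103 and TTCC at -98. Reads from identical stretches of this pair cannot be placed with certainty, and how they were handled is not given in the sources used here.

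Mpo encodes myeloperoxidase, the haem enzyme of azurophil granules that makes hypochlorous acid from hydrogen peroxide and chloride (chromosome 11, 87793784 to 87804412, plus strand). H3K4me1 covered 2424 bp of its window in 3 peaks in the Dox_Treated list and 5389 bp in 8 peaks in the Dox_Untreated list, a ratio of 0.45. Within 5 kb of the gene, H3K4me1 covered 0 bp in the Dox_Treated list and 1859 bp in the Dox_Untreated list. The treated peaks thus all lay at a distance from the gene, centred 6.68 kb before the start site, 20.2 kb before it within Tspoap1, and 23.4 kb after it within Lpo, the lactoperoxidase gene. The untreated list had counterparts of these 3 and also peaks of 703 bp and 753 bp centred 5.78 kb and 3.71 kb before the start site. A further untreated peak of 353 bp lay inside the gene, 3.59 kb after the start site, and 2 of 753 bp each lay in Lpo. All 5 untreated peaks without a counterpart were narrower than the 903 bp median of their list. Treated peaks lay only 197 bp from the one centred 5.78 kb before the start site and 497 bp from the one centred 22.1 kb after it. The peak in Tspoap1 went the other way and was wider with doxycycline, with 2103 bp in the Dox_Treated list and 1253 bp in the Dox_Untreated list. Neither list had a peak within 1 kb of the Mpo start site, as at 40.5% of the 17492 genes with a start site in the reference table.

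The ratio at Mpo depended on the window and on weak peaks. Within 50 kb of the gene it was 1.01, or nearly equal. When the lower 50% of each list by score was left out it was 1.85. Only the Tspoap1 peak of each list was then left, which crosses the window edge, so this value rests on the clipped part of that peak. Mpo was at least 1.5 times shorter in covered length with doxycycline, as was Ctsg, so that 2 of the 6 members passed this fold against 8.49% of genes with H3K4me1. At least 1.5 times longer were 0 members, against 11.0% of genes.

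Elane and Prtn3 encode neutrophil elastase and proteinase 3, serine proteases of azurophil granules that stand 3137 bp apart on chromosome 10 (79886312 to 79888216 and 79879667 to 79883174, both on the plus strand). Theirs was the most densely marked locus of the set. H3K4me1 covered 16630 bp of the joined 48550 bp window with doxycycline and 19501 bp without, which is 34.3% and 40.2% of it. By gene, Prtn3 had 15712 bp in the Dox_Treated list and 18883 bp in the Dox_Untreated list (ratio 0.832), and Elane had 11979 bp in the Dox_Treated list and 13745 bp in the Dox_Untreated list (ratio 0.872). The peak nearest to the genes began inside Prtn3 and ran past its 3′ end, with 4303 bp treated and 4603 bp untreated and 4253 bp in common. By the authors' score, it stood at the 91.5 percentile of the Dox_Treated list and at the 94.9 percentile of the Dox_Untreated list. A further pair of peaks lay before Prtn3, centred 2.74 kb from its start site with 2753 bp in the Dox_Treated list and 2.49 kb from it with 2353 bp in the Dox_Untreated list. Wide peaks also lay farther out, over Plppr3 and Ptbp1. The widest treated peak of all, 4653 bp at the 91.9 percentile by score, was centred 21.5 kb before the Prtn3 start site. It ran from 79855849 to 79860501, and most of it lay outside the joined window, which begins at 79859667. An untreated peak of 4353 bp, at the 92.8 percentile, was centred 15.6 kb before the Prtn3 start site. This untreated peak was overlapped by 2 treated peaks of 1303 bp and 2753 bp. Of the 11 treated peaks at this locus 10 had a counterpart, and of the 12 untreated ones 9 did.

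Smaller peaks nearer to the genes differed as well. A peak of 353 bp across the Prtn3 start site was in the Dox_Untreated list alone, 547 bp from the nearest treated peak. Downstream of Elane, the peak between this gene and Cfd, the complement factor D gene, was 503 bp wide treated and 1553 bp untreated. Within Med16, a Mediator subunit gene, a peak 10.7 kb from the Elane start site had 453 bp in the Dox_Treated list, and its untreated counterpart had 1403 bp. A 253 bp peak in Cfd was in the Dox_Untreated list alone. On the far side, in Plppr3, peaks of 703 bp in the Dox_Treated list and 503 bp in the Dox_Untreated list lay 47 bp apart and so counted as single-condition peaks without overlapping. The body of Elane itself and the 1 kb on either side of its start site carried no peak of either mark in any list. With the window set at 50 kb, the ratios were 1.08 at Elane and 1.02 at Prtn3, above rather than below 1.

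**Figure D2:**
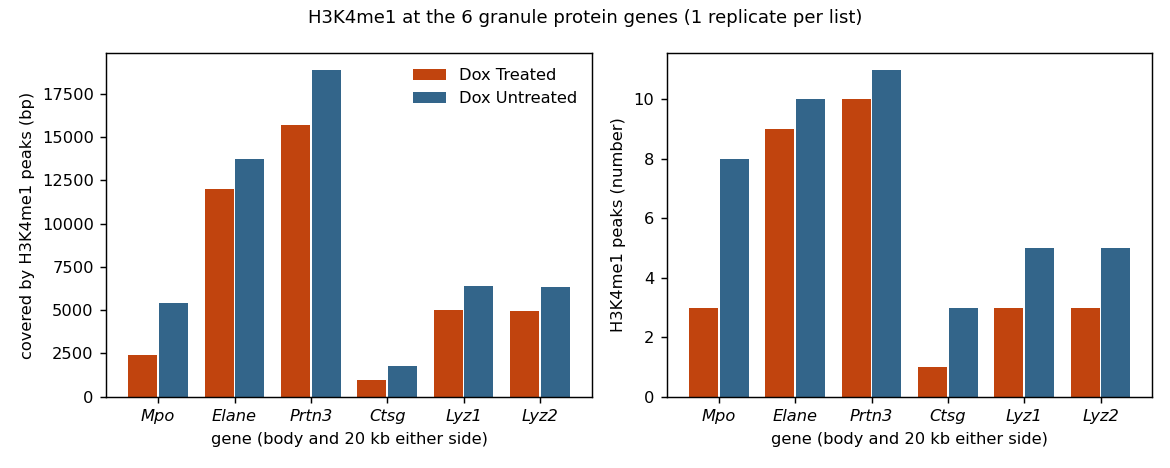
Length in bp covered by H3K4me1 peaks (left) and number of these peaks (right) in the body and 20 kb either side of each member, with Dox Treated left of Dox Untreated and 1 value per list. Treated bars are lower at all 6 genes in both panels, from 953 bp against 1759 bp at Ctsg to 15712 bp against 18883 bp at Prtn3.

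Ctsg encodes cathepsin G, another serine protease of azurophil granules (chromosome 14, 56099885 to 56102574, minus strand), and lies in a cluster of mast cell protease and granzyme genes. It had the least H3K4me1 of the set, with 953 bp in 1 peak in the Dox_Treated list and 1759 bp in 3 peaks in the Dox_Untreated list (ratio 0.542). At the start site, the peak was 953 bp wide treated and 353 bp untreated, and it covered 250 of the 250 printed bases with doxycycline and 27 without. The 2 other untreated peaks, of 653 bp and 753 bp, were centred 19.5 kb before and 15.8 kb after the start site and their nearest treated peaks lay 18447 bp and 15197 bp away. Within 5 kb of the gene the ratio was accordingly 2.7 rather than below 1, while over the gene body alone it was 0.847, from 276 bp treated and 326 bp untreated. The neighbours Mcpt8, a basophil protease gene, and Gzme, a granzyme gene, had no peak of either mark in their bodies in any list.

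Lyz2 encodes lysozyme M, the peptidoglycan-cleaving enzyme of macrophages and neutrophils, and Lyz1 its near copy lysozyme P, known from Paneth cells of the gut. They lie head to tail on the minus strand of chromosome 10 (117277541 to 117282272 and 117287795 to 117292868), 5522 bp apart. H3K4me1 covered 5009 bp of the joined window in 3 peaks in the Dox_Treated list and 6415 bp in 5 peaks in the Dox_Untreated list, a ratio of 0.781. All 3 treated peaks had an untreated counterpart. The widest, centred 7.71 kb before the Lyz1 start site, had 3553 bp in the Dox_Treated list and 3303 bp in the Dox_Untreated list, and stood at the 87.7 and 90.7 percentiles of their own lists by the authors' score. The second lay across the Lyz2 start site, with 1003 bp treated and 853 bp untreated. The third, after the 3′ end of Lyz2, was 453 bp wide with doxycycline and 403 bp without. Found in the Dox_Untreated list alone were a 1353 bp peak between the genes, centred 3.35 kb before the Lyz2 start site, and a 503 bp peak in Lyz1 near its start site.

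The lists thus differed in the presence of a start-site peak at Lyz1, while both held one at Lyz2. Within 1 kb of the Lyz1 start site, H3K4me1 covered 0 bp treated and 503 bp untreated, and at Lyz2 it covered 1003 bp treated and 853 bp untreated. A peak within 1 kb of a start site in the Dox_Untreated list alone occurred at 1 of the 6 members and at 1.99% of genes. In the Dox_Treated list alone it occurred at 0 members and at 1.73% of genes. In both lists it occurred at 3 members, Prtn3, Ctsg and Lyz2, and at 55.8% of genes. Within 5 kb of Lyz1 the ratio of covered length was 0.0577, from 107 bp in the Dox_Treated list and 1856 bp in the Dox_Untreated list.

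No H3K27ac peak was listed in 4 of the 6 windows in both lists, at Mpo, Ctsg, Lyz1 and Lyz2, as in 36.8% of all 21887 genes. These 4 genes carried H3K4me1 in both lists without any H3K27ac, a state found at 11.9% of genes. The start sites of all 6 members lacked H3K27ac within 1 kb in both lists, as did 51.5% of genes, while 46.4% had it in both, 0.806% in the Dox_Treated list alone and 1.31% in the Dox_Untreated list alone. At the remaining pair, H3K27ac was in the window in the Dox_Untreated list alone, as at 2.14% of genes, where 1.32% had it in the Dox_Treated list alone. It covered 0 bp treated against 303 bp untreated at Prtn3, and 0 bp treated against 418 bp untreated at Elane. By the fold of 1.5, both members with any H3K27ac counted as shorter, where 13.0% of the 13830 genes with a peak did so and 11.1% were longer. By any amount, 51.7% of those genes were shorter and 46.4% longer, or 50.8% and 49.2% after scaling to equal totals.

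Neither of these H3K27ac peaks lay at a granule gene. The 303 bp peak was in Plppr3, 13.8 kb before the Prtn3 start site, and sat among the narrowest of its list at the 9.0 percentile of width. The other, a 2103 bp untreated peak across the start site of Med16, reached 418 bp into the Elane window. Its treated counterpart, 1503 bp wide, began 82 bp beyond the window edge, so the Elane value depends on where the edge falls. The start site of Med16 thus carried H3K27ac in both lists, as did that of Ptbp1, a splicing regulator gene on the other side.

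Nearest to the Mpo start site, H3K27ac lay 33.3 kb away in the Dox_Treated list and 33.0 kb away in the Dox_Untreated list, both in Tspoap1. At the lysozyme genes it lay in Yeats4 in both lists, 57.1 kb treated and 57.2 kb untreated from the Lyz2 start site. From the Ctsg start site the distance was 179.0 kb treated and 44.1 kb untreated, a separate untreated peak of 503 bp that overlapped no protein-coding gene. Of the H3K4me1 peaks at the 6 members, 2 of 18 treated and 2 of 28 untreated ones overlapped H3K27ac of the same condition, where 23.2% of the whole Dox_Treated list and 22.5% of the whole Dox_Untreated list did. The 2 treated overlaps lay outside the windows, on H3K4me1 peaks that cross a window edge. Inside the windows, both marks covered 0 bp treated and 721 bp untreated.

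Across the 4 loci, H3K4me1 peaks of a single condition were mostly untreated ones. A treated peak lacked any untreated overlap in 1 of 18 cases (5.56%), against 20.8% of the whole Dox_Treated list. An untreated peak lacked a treated overlap in 12 of 28 cases (42.9%), against 26.7% of the whole Dox_Untreated list. When a peak within 1 kb counted as shared, 8 of the 28 were untreated alone, and the share of the whole list is not given for that rule. Those 12 were narrow, with a median width of 678 bp, and the 16 shared untreated peaks had one of 1328 bp. Member peaks had a median width of 1153 bp treated and 753 bp untreated, beside 1153 bp and 903 bp over the whole lists.

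Set beside all genes, the members lay on the side of shorter H3K4me1. Their median ratio of covered length was 0.779 and their median difference -1586 bp, treated minus untreated. The members are not separate observations, and this median ratio falls between those of Lyz1 (0.781) and Lyz2 (0.778), which share their peaks. By locus, the ratios were 0.45 at Mpo, 0.542 at Ctsg, 0.781 at Lyz1 and Lyz2, and 0.853 at Elane and Prtn3. Over the 17101 genes with untreated H3K4me1 in their window, the median ratio was 1.05 and the median difference 556 bp. Ranked among all genes, the member differences stood between the 5.5 and the 18.7 percentile. The member lengths were modest, with medians of 4969.5 bp treated and 6375.5 bp untreated, beside 14021 bp and 13180 bp over those genes. The whole H3K4me1 lists held 101388 peaks over 195.4 Mb treated and 119362 peaks over 184.0 Mb untreated, so the shorter lengths at the members ran against a longer total.

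**Figure D3:**
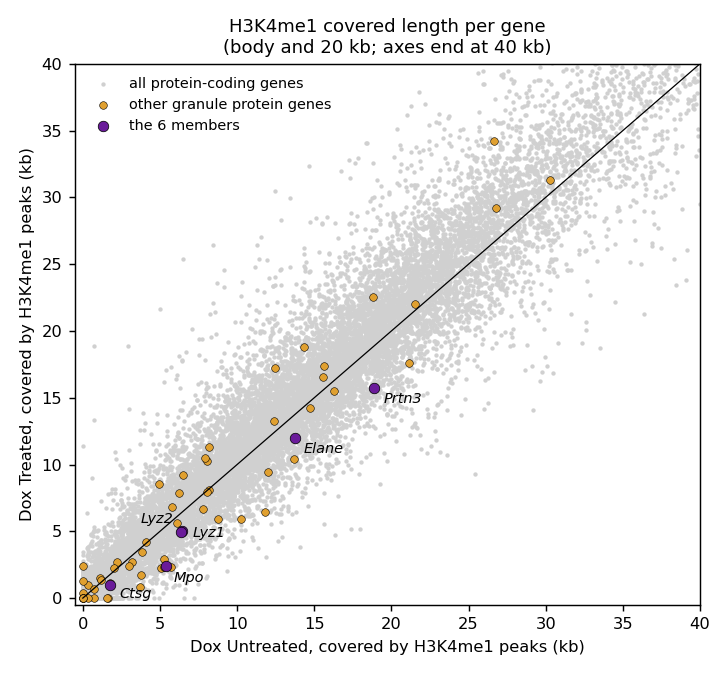
Length in kb covered by H3K4me1 peaks in the body and 20 kb either side of each gene, Dox Treated on the vertical and Dox Untreated on the horizontal axis, with axes ending at 40 kb. Each point is a gene, the line marks equal length, and the 6 members (purple) lie below it among all genes (grey), while the other granule genes (orange) lie on both sides.

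The wider list of 61 granule protein genes, of which 59 were in the gene table and 3 lay in member windows, was divided in H3K4me1. By any amount, 27 were longer in the Dox_Treated list, 26 shorter and 6 equal, 5 of them without a peak, and the median difference was 0 bp. Over all genes with a peak, 61.8% were longer and 37.9% shorter. With treated lengths scaled to equal totals, 23 were longer and 31 shorter, where 49.5% of all genes with a peak were longer and 50.5% shorter. Within 5 kb of the genes 17 were longer and 25 shorter, and the share over all genes is not given for that window. At least 1.5 times longer were 5 and shorter 13 of the 54 with a peak, where 11.0% of all genes were longer and 8.49% shorter. In H3K27ac, 12 were longer, 17 shorter and 30 without a peak in either list. Over all genes with an H3K27ac peak, 46.4% were longer and 51.7% shorter. Of the 29 with H3K27ac, 4 were at least 1.5 times longer and 10 shorter, where 11.1% of all genes with a peak were longer and 13.0% shorter. Among the 10, Mcpt2, Mcpt4 and Gzmb had the same values, 0 bp treated and 1306 bp untreated. Genes with overlapping windows can share a peak, so these counts of genes are not counts of separate regions.

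Among the shorter ones in H3K4me1, Serpinb1a, an inhibitor of the granule proteases elastase and cathepsin G, had 6465 bp of H3K4me1 treated and 11779 bp untreated. Mmp9, a gelatinase of neutrophil granules, had 5917 bp treated and 10232 bp untreated. Ms4a3, a membrane protein gene of granulocyte precursors, was shorter in both marks, with 17571 bp of H3K4me1 treated and 21139 bp untreated and 803 bp of H3K27ac treated and 2659 bp untreated. The largest H3K27ac difference in this direction was at Srgn, the serglycin gene whose proteoglycan holds granule proteases, with 12659 bp treated and 17621 bp untreated. Cma1, a mast cell chymase gene, had 803 bp of H3K27ac treated and 3259 bp untreated.

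Among the longer ones, Ctsb, a lysosomal cathepsin gene, had 11837 bp of H3K27ac treated and 6118 bp untreated, and 34208 bp of H3K4me1 treated and 26617 bp untreated. Ctss had 3859 bp of H3K27ac in the Dox_Treated list and 1053 bp in the Dox_Untreated list, and Ctsd had 13060 bp treated and 11271 bp untreated. Not all cathepsin genes of the list went this way, and Ctsh, chosen after its values were seen, had 853 bp of H3K4me1 treated and 3712 bp untreated. In H3K4me1, Ctsz had 18762 bp treated and 14315 bp untreated. Prg3, an eosinophil granule protein gene, was also longer, with 17244 bp treated and 12483 bp untreated. Nor did all neutrophil and mast cell genes go the shorter way. Also chosen after their values were seen, Mmp8, a neutrophil collagenase gene, had 10268 bp of H3K4me1 treated and 8071 bp untreated, and Mcpt1, a mast cell protease gene, had 11324 bp treated and 8171 bp untreated.

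Of 11 genes for regulators of granule genes and their receptors, 3 were longer, 7 shorter and 1 equal in H3K4me1 with doxycycline, and 4 longer, 3 shorter and 4 equal in H3K27ac. The shares over all genes with a peak were 61.8% longer and 37.9% shorter in H3K4me1, and 46.4% longer and 51.7% shorter in H3K27ac. Myb was the gene with the largest difference downward in both marks, with 18533 bp of H3K4me1 treated and 21089 bp untreated and 4256 bp of H3K27ac treated and 5712 bp untreated. Csf3r, the receptor gene for granulocyte colony-stimulating factor, had 9142 bp of H3K4me1 treated and 11157 bp untreated, and Csf1r, the macrophage receptor gene, 5862 bp treated and 7371 bp untreated. Runx1 had 108119 bp of H3K4me1 treated and 102213 bp untreated, and Cebpb had 15952 bp treated and 13027 bp untreated. In H3K27ac, Runx1 was also longer, with 38236 bp treated and 35754 bp untreated. So were Cebpd, with 903 bp treated and 0 bp untreated, and Csf3r, with 3006 bp treated and 2556 bp untreated. Csf1r had 303 bp of H3K27ac treated and 353 bp untreated. Spi1 itself had 25064 bp of H3K4me1 treated and 20826 bp untreated and 6871 bp of H3K27ac treated and 6974 bp untreated. The lists cannot tell the Spi1 gene from the transgene, and the hairpin acts on the transcript.

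The labelled cell type was checked at start sites. Of 12 erythroid markers with a start site in the reference table, 12 carried H3K27ac within 1 kb of it treated and 8 untreated, and 12 carried H3K4me1 in each list. Of 10 neutrophil and granulocyte markers, 0 carried H3K27ac in either list, and 1 carried H3K4me1 treated and 0 untreated. For 7 monocyte and macrophage markers, the numbers with H3K27ac were 0 treated and 1 untreated, and for 7 mast cell and basophil markers 1 treated and 2 untreated. Neither of the B cell markers Cd79a and Pax5 carried any, and of 3 T cell markers 1 did treated and 0 untreated. Megakaryocyte markers, of which there were 4, carried H3K27ac at 3 treated and 2 untreated. In H3K4me1, the numbers were 4 of 7 in each list for monocyte and macrophage markers, 6 of 7 treated and 5 of 7 untreated for mast cell and basophil markers, 2 of 3 in each list for T cell and 4 of 4 in each list for megakaryocyte markers, and 0 for the B cell markers. The granule genes had 0 of 6 in H3K27ac in each list, as did the granulocyte and B cell markers, and 3 of 6 treated and 4 of 6 untreated in H3K4me1. The H3K27ac lengths in body and 20 kb were also summed gene by gene, so a peak shared by neighbouring windows counts more than once. For erythroid genes the sums were 143160 bp treated and 92738 bp untreated. They were 13877 bp treated and 12783 bp untreated for granulocyte, and 19267 bp treated and 23695 bp untreated for monocyte and macrophage genes. For mast cell and basophil genes they were 10171 bp treated and 13436 bp untreated. Megakaryocyte genes, like the erythroid ones, had a longer treated sum, with 32901 bp treated and 20057 bp untreated. For B cell genes the sums were 10662 bp treated and 10771 bp untreated, and for T cell genes 12421 bp treated and 11424 bp untreated. The part that a different mix or maturity of cells has in the values at the granule genes was not tested.

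**Figure D4:**
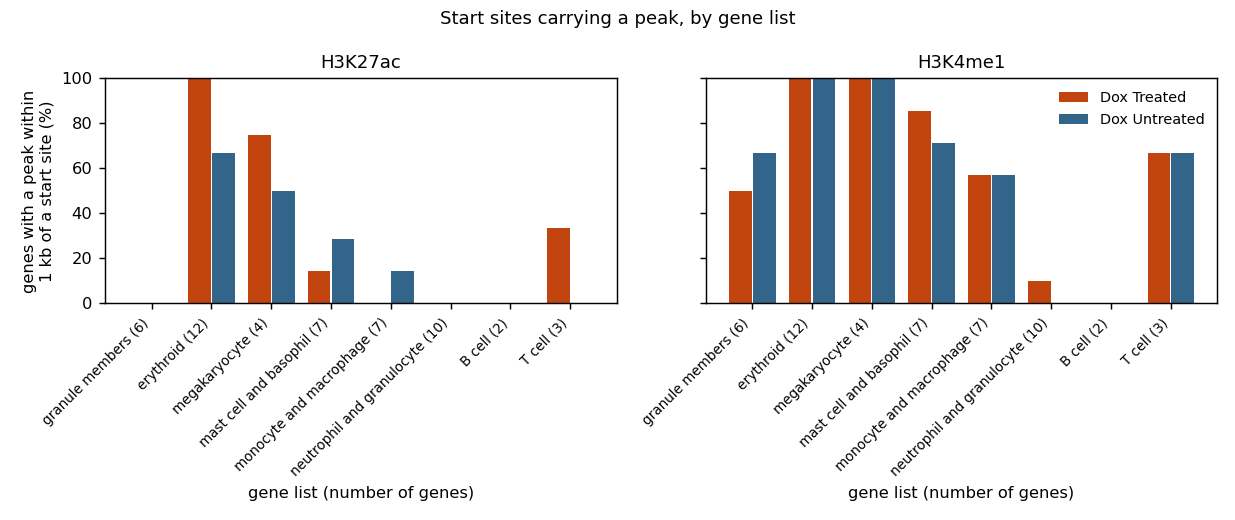
Percentage of the genes of each list with an H3K27ac (left) or H3K4me1 (right) peak within 1 kb of a start site, Dox Treated left of Dox Untreated, with the number of genes in parentheses. Erythroid markers carry H3K27ac at 12 of 12 treated and 8 of 12 untreated start sites, and the granule members at none in either list.

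Over the 4 lists, the genes nearest in covered length to Prtn3 outside the member windows were Slc18a2, a monoamine transporter gene, at a Euclidean distance of 709 bp, and Hoxb8, a homeobox gene of early myeloid cells, at 975 bp. Slc18a2 had 403 bp of H3K27ac treated and 0 bp untreated, and 16141 bp of H3K4me1 treated and 19138 bp untreated. Hoxb8 had no H3K27ac in either list and 15865 bp of H3K4me1 treated and 17969 bp untreated. This measure uses 4 values per gene and reflects length alone.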

How the data were processed

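Peak lists of 4 groups out of 24 ChIP-seq and input samples were used: H3K27ac and H3K4me1, each with and without 48 h of doxycycline. Groups came from the sample titles. The other samples were not analysed here. The tools BWA and bcl2fastq 2.17.1.14 and the build mm10 are named in the submitters' processing notes. Which peak caller and thresholds were used, and how the 2 replicates behind each H3K27ac list were joined, is not given in the sources used here. In the deposited H3K27ac lists, peaks have a position, a width and a constant score of 2 that was not used. In the deposited H3K4me1 lists, peaks also have the authors' score, whose scale is unstated and which served only to rank peaks within a list, and a p-value or q-value that was not used. Starts and ends were taken as 1-based and inclusive, and peaks on assembled chromosomes were kept. The depth behind the lists is unknown.

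Per gene, the bp covered by peaks in the body and 20 kb either side were summed with Python 3.11.15, numpy 2.4.6 and pandas 2.3.3. The sums were checked on simulated intervals and against bedtools 2.31.1. Figures were drawn with matplotlib 3.10.9, and promoters were aligned with Biopython 1.88. Genes, start sites and sequences came from RefSeq tables on GRCm38.p6. An overlap of 1 bp with a peak of the same mark in the other condition made a peak shared, and lengths are called longer or shorter by any amount unless a fold of 1.5 is named. The 6 members, the lists and the settings were chosen with earlier results of these data known. Named beside the members were genes in their windows, the 3 genes of each list with the largest difference per mark and direction, and the 2 nearest genes in covered length for members with H3K27ac, of which those of Elane are not reported here. The symbols Azu1 and Tpsab1 had no match in the gene table. No proteins were compared, since no protein sequences were used here. With no replicates in the lists, no test was made.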

Additional observations from a re-analysis of the deposited data

How the results depend on the processing

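Alternatives were windows of 5 kb and 50 kb, gene bodies alone, the better 50% of each list, equal peak numbers, peaks of at least 200 bp, peaks within 1 kb merged, lengths scaled to equal totals, a fold of 2 and other overlap rules. The ratio of H3K4me1 covered length over the 6 members stayed below 1 under the 8 alternatives run for it, from 0.694 with windows of 5 kb to 0.959 with windows of 50 kb. Member by member, 41 of 46 ratios were below 1. Those above were Mpo at 1.01 and Elane and Prtn3 at 1.08 and 1.02 with 50 kb, Mpo at 1.85 with the better 50%, and Ctsg at 2.7 with 5 kb. With the better 50%, Ctsg had no untreated peak left and no ratio. H3K27ac covered length, treated minus untreated, was -721 bp in the main window, 0 bp with 5 kb and with bodies alone, -2506 bp with 50 kb, and -418 bp with the better 50% and with equal peak numbers. Treated H3K27ac peaks numbered 8 with 50 kb. Untreated ones numbered 0 with 5 kb, 15 with 50 kb, and 1 with the better 50% and with equal numbers, and with equal numbers 0 were in the Dox_Untreated list alone. H3K4me1 peaks numbered 7 treated and 14 untreated with 5 kb, 48 and 61 with 50 kb, and 8 and 10 with the better 50%. Treated-only H3K4me1 peaks numbered 2 with equal numbers and when 50% of the peak itself had to overlap, 6 under a reciprocal overlap of 50%, and 0 when a peak within 1 kb counted as shared. Untreated-only ones, 12 in the main setting, numbered 10 with equal numbers and 8 when a peak within 1 kb counted as shared. They numbered 15 when 50% of the peak itself had to overlap and 17 under a reciprocal overlap of 50%. The bp with both marks were 0 in the Dox_Untreated list with the better 50%, against 721. With a fold of 2, 7.06% of genes were shorter and 5.77% longer in H3K27ac. In H3K4me1, 5.78% were shorter and 5.56% longer by that fold, and 1 of the 6 members was shorter. With windows of 5 kb and the fold of 1.5, 3 members were shorter in H3K4me1, against 9.1% of genes. In H3K27ac, 0 members were shorter with 5 kb, where they had 0 peaks in either list. By any amount, 6 granule list genes were longer and 13 shorter in H3K27ac with 5 kb, and 17 longer and 25 shorter in H3K4me1. The shares of all genes by any amount are not given for 5 kb. A larger or smaller window holds more or fewer peaks by construction. For the other settings the cause was not tested. No paired analysis was possible because each group has a single list and no test was made. Leaving out a replicate was not possible for the same reason, and the unknown depth limits every peak missing from a list.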
